A study of Mus musculus with 16 samples.

Results

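Genes that write and erase methyl groups on histones were followed in the mouse hippocampus after learned helplessness. The list held 36 genes, taken by name: histone lysine methyltransferases, the core subunits of Polycomb repressive complex 2 (PRC2), and demethylases. Of these, 33 had values, in 216 transcripts, among 18287 gene names and 80137 transcripts measured in all. The expression of Suv39h1, Kdm5c and Kdm6a is not analysed here, and these genes enter the promoter counts alone.

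The samples came from 16 male wild type C57BL/6 mice aged 3 months, in 4 groups of 4, and each library held the RNA of 1 mouse from its left and right hippocampus together. Homecage (HC) mice stayed in their cages, with neither handling, shocks nor escape trials. Control (Ctrl) mice were put in the shuttle box on the first day without shocks and had 30 trials on the next day in which a shock of 0.4 mA could be escaped. The remaining mice took 180 shocks of 0.4 mA on the first day from which there was no escape, followed by the same 30 trials a day later. Their failures and latencies to escape then divided them by k-means and discriminant analysis into mice with learned helplessness (LH) and mice without it (NLH, non-learned helpless), so LH and NLH had the same shocks on the first day and differ in behavior by construction. A shock in the trials ended when the mouse escaped, so time under shock in the trials differs with the behavior, and the contributions of both cannot be told apart. Tissue was taken 3 h after the trials. Ctrl vs. HC therefore asks what handling, the box and the escape trials change, which cannot be told apart. NLH vs. Ctrl and LH vs. Ctrl set mice with inescapable shocks, divided by their behavior in the trials, against mice without such shocks. There the inescapable shocks, the division by behavior and the time under shock in the trials cannot be told apart. LH vs. NLH asks what separates mice that behaved differently in the trials after the same first day. Shocked vs. Ctrl takes the mean of NLH and LH against Ctrl.

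Histone methylation marks the state of a gene by the residue that carries it. Lysine 4 of histone H3 (H3K4) is methylated at active promoters and enhancers by the KMT2 and SETD1 enzymes, H3K36 along transcribed genes by SETD2, NSD1 and ASH1L, and H3K79 by DOT1L. H3K9 methylation by SETDB1, EHMT1, EHMT2 and the SUV39H enzymes, and H3K27 methylation by PRC2, go with silenced chromatin. Flavin-dependent (KDM1) and JmjC domain (KDM2 to KDM7) demethylases take the marks off again. In neurons these enzymes take part in activity-dependent transcription and memory, and mutations in many of them cause intellectual disability.

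The values are FPKM, fragments per kilobase of transcript scaled to the mapped fragments of the library, given for each transcript and summed here over the transcripts of a gene. Estimated depth was 20170000 to 38010000 fragments per mouse. It was 28100000, 23840000, 24720000 and 20170000 in LH1 to LH4 and 26950000 to 38010000 in the mice of the other groups. LH was thus the group of low depth, and the part of depth in differences that involve LH was not tested. Libraries LH3 and LH4 stood apart: 10846 and 15504 transcripts were at an FPKM of 0 there, against 4872 to 7352 in the other 14 mice, and LH4 had the lowest summed FPKM, 120208, where LH2 had the highest, 158004. Differences that involve LH are therefore also given without these libraries, which leaves 2 LH mice, for the genes described singly. Defining markers of excitatory neurons were high in every mouse, with summed levels of 367 to 574 FPKM. Of all marker genes with values, none was under 0.1 FPKM in every mouse. LH4 was the lowest of the LH mice for excitatory neurons (367 FPKM against 413 to 574), interneurons, dentate granule cells, oligodendrocytes (265 against 449 to 515), astrocytes, microglia, choroid plexus and striatum. It was not the lowest for endothelial cells or red blood cells, where LH3 was. The choroid plexus list varied most, from 2.57 FPKM in LH4 to 91.6 FPKM in LH2. The part of these differences in the results below was not tested. In whole tissue, fewer cells of a type and less RNA per cell cannot be told apart.

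Levels of the 33 genes lay between a mean over the 16 mice of 0.955 FPKM for Suv39h2, which writes H3K9 trimethylation, and one of 15.1 for Ehmt2 (G9a), which dimethylates H3K9. The median gene of all 18287 had a mean of 1.59 FPKM, and all members but Kdm1b and Suv39h2 were above it. Ehmt2 was at 15.9, 15, 13.3 and 17.0 FPKM in HC mice, 14.5, 16.9, 16.7 and 17.0 in Ctrl, 12.8, 15.8, 15.5 and 15.2 in NLH, and 16.2, 17.9, 13.0 and 9.36 in LH. These ranges overlapped in every comparison. Ash1l, an H3K36 methyltransferase, followed with a mean of 13.4 FPKM, and Kdm2a, an H3K36 demethylase, with 12.1. Kdm2a was at 11.1, 11.0, 9.94 and 11.8 FPKM in HC, 11.3, 11.4, 11.3 and 14.3 in Ctrl, 11.7, 12.9, 14.2 and 11.7 in NLH, and 13.3, 15, 11.7 and 10.8 in LH, ranges that overlapped. At the other end Kdm1b, an H3K4 demethylase, had a mean of 1.25 FPKM, and Kdm6b, which removes H3K27 methylation, one of 1.79. Kdm6b was at 1.39, 0.995, 1.64 and 1.84 FPKM in HC, 1.72, 2.03, 1.63 and 1.69 in Ctrl, 1.51, 2.01, 1.68 and 1.64 in NLH, and 1.84, 1.73, 1.30 and 4.04 in LH, so that LH4 stood apart. Suv39h2 was at 0.956, 1.18, 0.878 and 0.813 FPKM in HC, 0.868, 0.910, 0.698 and 0.969 in Ctrl, 1.30, 1.04, 0.976 and 0.527 in NLH, and 0.982, 0.922, 1.16 and 1.11 in LH, with overlap between all groups.

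**Figure D1:**
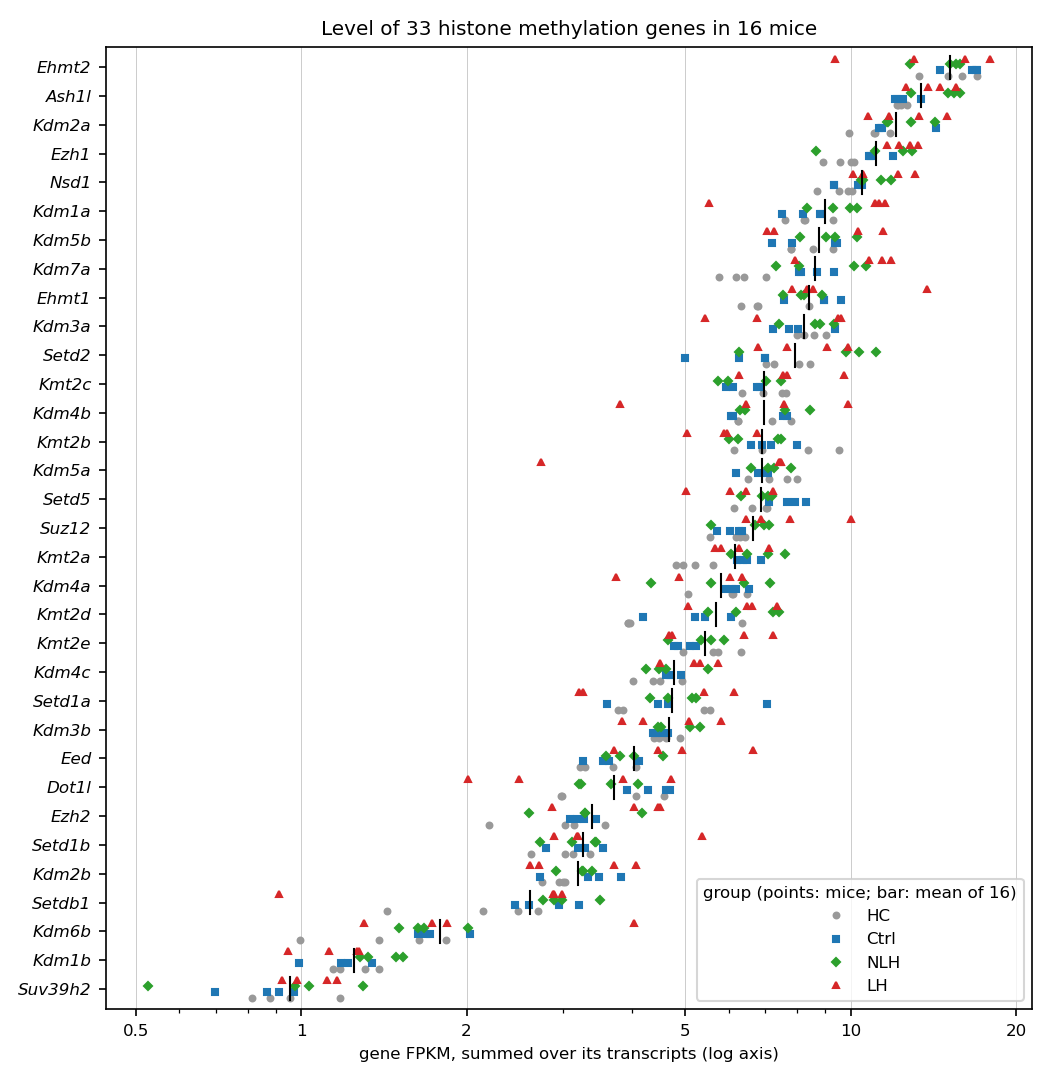
Gene FPKM (log axis) of the 33 genes with values in each of 16 mice, with genes ordered by their mean (vertical bar) and groups marked by color and shape (HC, Ctrl, NLH, LH). Levels run from 0.955 FPKM for Suv39h2 to 15.1 FPKM for Ehmt2, and the LH mice had the largest SD of the 4 groups in 26 of the 33 genes (78.8%, against 75.5% of all genes with a mean of at least 1 FPKM).

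Within roles the levels differed per length. Among the PRC2 catalytic subunits, Ezh1 (11.1 FPKM) was above Ezh2 (3.38 FPKM) in all 16 mice, by a ratio of 2.75 to 4.36. Counting protein coding transcripts alone, the ratio was 6.12 to 9.97 in the other 15 mice and 57.2 in LH4, where coding Ezh2 was at 0.139 FPKM. Their partners Suz12 and Eed, which the complex needs for activity, had means of 6.64 and 4.03 FPKM. H3K4 methyltransferases spanned 3.26 FPKM (Setd1b) to 6.96 FPKM (Kmt2c), and H3K36 methyltransferases 7.94 FPKM (Setd2) to 13.4 FPKM (Ash1l). Kdm1a (LSD1), the catalytic subunit of the CoREST repressor complex, had a mean of 9.0 FPKM, and the H3K4 demethylases Kdm5b and Kdm5a had 8.75 and 6.89 FPKM.

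Promoters of the listed genes were compared with those of all genes, from RefSeq windows on GRCm38.p6 that reach from 250 bases before to 50 bases after a start. Of the 36 genes, 26 had a window, 34 windows in all. The median window held 28 CpG dinucleotides, against 7 over all 32851 promoters. The SP1 letters GGGCGG, on either strand, were in 23 member windows (67.6%) and in 35.7% of all promoters. TATAAA was in none of the 34, against 13.6%, and CCAAT in 11 (32.4%), against 37.4%. The 250 bases before the start are shown for Kmt2a and Kdm7a, the genes with the smallest p in Ctrl vs. HC, for Setd2, the gene with the smallest p in shocked vs. Ctrl, and for Suz12, a PRC2 subunit whose LH values all lay above Ctrl. Capitals mark GGGCGG on either strand in Kmt2a, Kdm7a and Setd2, and CCAAT in Suz12.
Kmt2a, chr9:44881290-44881539, minus strand: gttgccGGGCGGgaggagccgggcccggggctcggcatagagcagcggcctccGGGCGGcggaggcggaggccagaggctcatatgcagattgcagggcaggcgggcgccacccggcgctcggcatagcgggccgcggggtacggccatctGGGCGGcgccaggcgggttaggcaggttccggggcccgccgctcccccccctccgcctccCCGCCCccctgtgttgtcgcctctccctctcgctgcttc
Kdm7a, chr6:39206774-39207023, minus strand: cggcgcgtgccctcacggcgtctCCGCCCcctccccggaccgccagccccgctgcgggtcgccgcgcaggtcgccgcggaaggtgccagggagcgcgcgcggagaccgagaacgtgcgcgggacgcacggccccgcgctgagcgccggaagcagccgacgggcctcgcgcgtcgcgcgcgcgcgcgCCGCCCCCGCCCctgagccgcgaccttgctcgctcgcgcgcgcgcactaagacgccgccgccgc
Setd2, chr9:110532347-110532596, plus strand: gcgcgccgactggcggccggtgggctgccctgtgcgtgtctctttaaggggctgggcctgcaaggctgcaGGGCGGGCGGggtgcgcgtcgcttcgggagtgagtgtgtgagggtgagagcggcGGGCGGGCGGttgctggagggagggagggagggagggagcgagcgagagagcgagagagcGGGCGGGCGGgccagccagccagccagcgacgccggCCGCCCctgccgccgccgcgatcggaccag
Suz12, chr11:79992856-79993105, plus strand: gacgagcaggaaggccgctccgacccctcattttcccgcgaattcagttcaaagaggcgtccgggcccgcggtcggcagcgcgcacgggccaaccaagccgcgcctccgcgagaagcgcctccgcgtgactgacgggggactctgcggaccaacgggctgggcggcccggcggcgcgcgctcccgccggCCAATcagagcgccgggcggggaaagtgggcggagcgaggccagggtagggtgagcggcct
These 4 windows hold 29, 56, 31 and 37 CpG dinucleotides. A match of letters is a description of the window and not a bound site.

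The genes were also spread over many transcripts. The median member had 5 transcripts with values, against 2 over all genes. Of the 216, 103 (47.7%) are protein coding by GENCODE vM21, 65 are retained-intron transcripts, 22 are targets of nonsense-mediated decay and 26 are other processed transcripts. Coding transcripts held 66.9% to 75.6% of the members' FPKM per mouse, and retained-intron transcripts 18.0% to 24.8%, against 6.74% to 9.69% over all protein coding genes. The 16 mice of both sets did not overlap in this share, which is a description with no test, since the genes within a mouse share 1 library. By number, retained-intron transcripts were 30.1% of the members' transcripts and 23.1% of those of all protein coding genes. In summed FPKM the highest genes weigh most, and FPKM is per length. Median lengths were 4373 bases for coding and 870 for retained-intron transcripts in the members, and 2257 and 814 over all protein coding genes. For 27 of the 31 members with several transcripts the leading one was coding (87.1%, against 85.9% over all protein coding genes). The exceptions, by mean FPKM, were Ehmt1, Kmt2b and Setd5, where a retained-intron transcript was highest, and Ezh2, where Ezh2-209, a target of nonsense-mediated decay, was. These transcripts led in 2, 15, 12 and 10 of the 16 mice, and 12 of the 31 members had 1 leading transcript in all mice (38.7%, against 38.8% over all protein coding genes). The leading transcript held a median of 48.8% of a member's FPKM, against 62.6% over all protein coding genes. A further 82 assembled transcripts without a gene name lie at those members' loci that hold 1 gene name. They are not in the gene sums and held 21.5% to 25.6% of the FPKM of the member genes and these transcripts together. The loci of Kmt2d and Setd1a hold 2 and 5 gene names, and unnamed transcripts there were not counted.

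**Figure D2:**
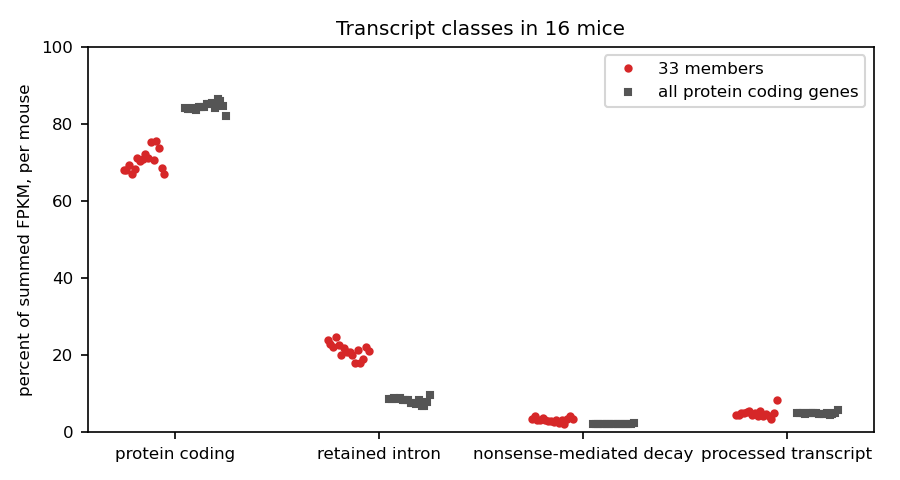
Share of summed FPKM (percent, vertical axis) in 4 transcript classes for the 33 genes (circles) and for all protein coding genes (squares), 1 point per mouse. Retained-intron transcripts take 18.0% to 24.8% in the 33 genes and 6.74% to 9.69% over all protein coding genes. By number they are 30.1% and 23.1% of the transcripts.

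Differences between groups were fitted with limma on log2(FPKM + 0.1) over all genes, and p values were adjusted by Benjamini-Hochberg over all 18287 genes. On this scale the change of low genes is understated. No member gene passed an adjusted p of 0.05 in any of the 5 comparisons. Of all genes, 0, 1 (0.00547%), 0, 2 (0.0109%) and 2 (0.0109%) passed in Ctrl vs. HC, NLH vs. Ctrl, LH vs. Ctrl, LH vs. NLH and shocked vs. Ctrl, in this order. At an unadjusted p under 0.05, 2 of 33 members (6.06%) differed in Ctrl vs. HC, both higher in Ctrl, where 2.7% of all genes did, 1.61% higher and 1.08% lower. In NLH vs. Ctrl it was 2 (6.06%, against 5.59% of all genes; both higher, against 4.43% higher and 1.16% lower), in LH vs. Ctrl 5 (15.2%, against 11.5%), of which 3 were higher and 2 lower (7.03% and 4.49% of all genes), in LH vs. NLH none (against 7.54%) and in shocked vs. Ctrl 3 (9.09%, against 8.82%), 2 higher and 1 lower (6.57% and 2.25% of all genes). The members' shares rest on 0 to 5 of 33 genes, and whether they differ from those of all genes was not tested. All genes also include many at levels below every member. The median log2 difference of the members was 0.06, 0.07, 0.10, -0.05 and 0.07 in the same order, beside 0.02, 0.06, 0.00, -0.06 and 0.03 over all genes. Ctrl mice enter 4 of the comparisons, so these are not independent of each other. Exact permutation tests of single genes, two-sided, cannot go below p = 0.0286 with 4 mice against 4.

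The 216 transcripts were tested in the same way over all 80137, and so was isoform balance, the log2 ratio of a transcript to the rest of its gene, for 214 of them over 54197. None of the members passed after adjustment, where 0.00374%, 0.0125%, 0.0462%, 0.0412% and 0.0349% of all transcripts did in the order above, and 0.00369%, 0.0111%, 0.0351%, 0.0461% and 0.0111% of all isoform balances. At an unadjusted p under 0.05 there were 13 member transcripts in Ctrl vs. HC (6.02%, against 3.45% of all), 11 in NLH vs. Ctrl (5.09%, against 5.12%), 28 in LH vs. Ctrl (13.0%, against 10.7%), 24 in LH vs. NLH (11.1%, against 8.72%) and 20 in shocked vs. Ctrl (9.26%, against 7.2%). For isoform balance there were 7 (3.27%, against 3.33%), 10 (4.67%, against 4.89%), 25 (11.7%, against 10.5%), 19 (8.88%, against 9.36%) and 16 (7.48%, against 6.85%). Whether these shares differ from those of all was not tested, and transcripts of the same gene are not independent rows. Groups did not overlap for 10 member transcripts higher and 6 lower in LH vs. Ctrl, and for 7 and 3 in NLH vs. Ctrl. In LH vs. NLH it was 3 and 5, in Ctrl vs. HC 14 and 9, and in shocked vs. Ctrl 2 and 1. The share of all transcripts without overlap is not given here. Transcripts described singly below were mostly chosen by a small p, so their lack of overlap is a description.

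Groups did not overlap in Ctrl vs. HC for 4 members with higher values in Ctrl, Kmt2a, Setd5, Ezh1 and Kdm7a, where 3.32% of all genes were so, and for 1 with lower values, Setd2 (1.91%). In LH vs. Ctrl this held for Suz12 alone, which was higher (4.05% higher and 1.54% lower of all genes), and in LH vs. NLH for Kdm1b alone, which was lower (0.842% and 1.26%). No member was without overlap in NLH vs. Ctrl (4.76% and 1.28%) or in shocked vs. Ctrl (0.908% and 0.164%). The FPKM are not scaled between mice, and median-ratio size factors, which ran from 0.822 in LH4 to 1.201 in LH2, changed this. After division by them, Kmt2a, Ezh1 and Kdm7a were without overlap in Ctrl vs. HC on the higher side (3.19% of all genes) and Setd2 on the lower side (2.89%), while Setd5 overlapped. In LH vs. Ctrl, Setd2 was then higher (4.17%) and Ehmt2 lower (3.75%) without overlap, and Suz12 overlapped. In NLH vs. Ctrl, Ehmt2 and Setd5 were lower (3.44%, with 3.52% of all genes higher), and Ehmt2 was lower in shocked vs. Ctrl (0.733%, with 0.82% higher). No member was without overlap in LH vs. NLH (1.03% and 1.9%).

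Leaving out LH3 and LH4 changed these counts for members and for all genes together. At an unadjusted p under 0.05, LH vs. Ctrl then had 10 members above and 2 below (22.4% and 1.9% of all genes), and 2 passed after adjustment (5.41% of all genes), Kdm1a and Nsd1. In shocked vs. Ctrl 8 were higher and 2 lower (19% and 1.84%), with none after adjustment (3.6%). In LH vs. NLH 2 were higher and none lower (13.5% and 1.8%), with none after adjustment (0.0383%). The median of all genes in LH vs. Ctrl moved from 0.00 to 0.19 and that of the members from 0.10 to 0.16. In shocked vs. Ctrl the median of all genes was then 0.13 and in LH vs. NLH also 0.13. These fits are not scaled between mice, and the LH mice left, LH1 and LH2, had the largest size factors, 1.156 and 1.201. After size factors Nsd1 was at 11.3 in LH1 and 10.1 in LH2, against 9.24 to 10.4 in Ctrl. Kdm1a was then at 9.59 and 9.60, against 7.29 to 9.33 in Ctrl.

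**Figure D3:**
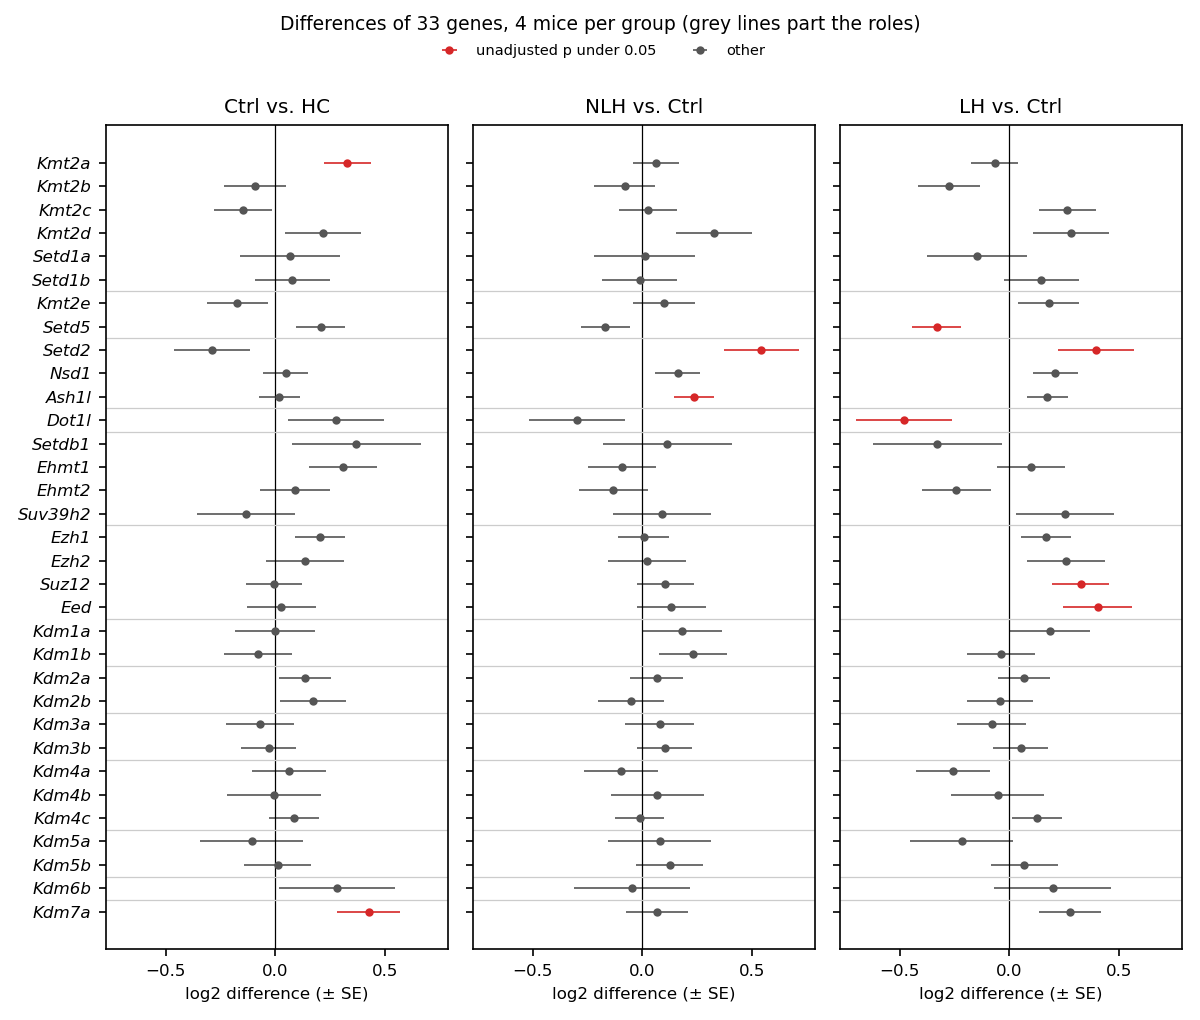
Log2 difference (horizontal axis, ± SE of the limma fit) of the 33 genes, grouped by role, in Ctrl vs. HC, NLH vs. Ctrl and LH vs. Ctrl. Red points have an unadjusted p under 0.05, 2, 2 and 5 genes in the 3 panels, and none passes after adjustment.

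Among the H3K4 methyltransferases, Kmt2a (MLL1), which maintains H3K4 methylation at active promoters and is needed for memory formation in mice, was lowest in HC mice. Its FPKM was 5.21, 4.81, 4.96 and 5.61 in HC, 6.38, 6.22, 6.47 and 6.87 in Ctrl, 6.06, 7.09, 7.58 and 6.47 in NLH, and 7.10, 6.27, 5.66 and 5.81 in LH. Every Ctrl mouse was above every HC mouse, and the groups that had escape trials overlapped. In Ctrl vs. HC the log2 difference was 0.33 (SE 0.107, limma p = 0.00695, adjusted p = 1, exact permutation p = 0.0286). All 12 mice with trials were above the highest HC mouse on FPKM as deposited, while after size factors LH2 (5.22) lay among the HC mice (4.98 to 5.51). With the 5 unnamed transcripts of the locus added, the difference was 0.08. The coding transcript Kmt2a-201 carried 85.0% of the gene and differed by 0.32.

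Kmt2d, an enhancer H3K4 methyltransferase, was at 3.94, 3.93, 3.96 and 6.34 FPKM in HC, 4.20, 6.06, 5.21 and 5.43 in Ctrl, 7.22, 6.19, 5.50 and 7.40 in NLH, and 6.61, 5.05, 6.49 and 7.36 in LH. NLH3 lay within the Ctrl mice, and the log2 difference was 0.33 (SE 0.173, limma adjusted p = 0.917). In LH vs. NLH the short coding transcript Kmt2d-203 was lower, at 1.47, 0.843, 1.01 and 0.686 FPKM in LH against 2.32, 1.75, 1.62 and 2.29 in NLH, with no overlap (log2 -0.96, SE 0.367, limma adjusted p = 0.498, exact permutation p = 0.0286). Without LH3 and LH4 it was -0.77. Kmt2c, its closest relative, was at 7.51, 6.92, 7.64 and 6.35 FPKM in HC, 6.84, 6.74, 5.93 and 6.10 in Ctrl, 7.47, 7.01, 5.97 and 5.74 in NLH, and 7.66, 7.53, 6.28 and 9.73 in LH. LH4 was the highest of all mice, the groups overlapped, and LH vs. NLH gave 0.24 (limma adjusted p = 0.711). Without LH3 and LH4 it was 0.22, beside a median of 0.13 over all genes. Over all alternatives the Kmt2c difference ran from 0.08 to 0.34. Kmt2b, Setd1a and Setd1b had log2 differences between -0.28 and 0.15 across the comparisons with Ctrl and no p under 0.05. Without LH3 and LH4, LH vs. Ctrl went from -0.28 to -0.18 for Kmt2b, from -0.15 to 0.26 for Setd1a and from 0.15 to -0.0033 for Setd1b. The median of all genes was 0.19 in this fit. Relative to it Kmt2b was at -0.37, Setd1a at 0.07 and Setd1b at -0.20. The 6 H3K4 methyltransferases summed to 33.4 ± 1.67 FPKM in Ctrl, 34.7 ± 1.54 in NLH and 34.4 ± 3.50 in LH (SD, n = 4).

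Setd5 and Kmt2e carry SET domains whose activity is debated. Setd5, a chromatin regulator mutated in intellectual disability, was at 7.00, 6.13, 6.61 and 7.05 FPKM in HC, 8.30, 7.67, 7.10 and 7.91 in Ctrl, 6.32, 7.08, 7.2 and 6.90 in NLH, and 6.03, 7.21, 5.02 and 6.45 in LH. Ctrl mice were above all HC mice, though not after size factors, and only the lowest Ctrl mouse lay within the shocked mice. The log2 difference of LH vs. Ctrl was -0.33 (SE 0.112, limma p = 0.00944, adjusted p = 0.269, exact permutation p = 0.0571), and that of shocked vs. Ctrl -0.25 (p = 0.0205, adjusted p = 0.452, exact permutation p = 0.0162). They were -0.23 without LH3 and LH4 (limma adjusted p = 0.199) and -0.20 (adjusted p = 0.172). Most of the gene's FPKM is not coding: coding transcripts summed to 1.63 ± 0.369 FPKM in Ctrl (SD, n = 4) and to 1.59, 1.41, 0.650 and 0.00102 in the LH mice, where LH1 and LH2 lay within Ctrl and LH3 and LH4 below. When the 12 unnamed transcripts of the locus were added, the differences over all mice turned to 0.03 and 0.01, so the lower average in shocked mice was seen in the named transcripts alone. Kmt2e had no p under 0.05.

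The H3K36 methyltransferases Setd2, Nsd1 and Ash1l were each higher on average in NLH and in LH than in Ctrl. Their sum was 26.5 to 30.9 FPKM in Ctrl, 29.6 to 38.8 in NLH and 29.5 to 38.5 in LH, and 3 mice in each shocked group were above all Ctrl mice. Ash1l was at 12.4, 12.2, 12.1 and 12.6 FPKM in HC, 12.1, 12.5, 13.4 and 12.0 in Ctrl, 15, 15.4, 15.8 and 12.9 in NLH, and 15.6, 14.6, 13.8 and 12.6 in LH. HC and Ctrl mice overlapped in a narrow range, and 6 of the 8 shocked mice were above both. The log2 difference was 0.24 in NLH vs. Ctrl (SE 0.0925, limma p = 0.0211, adjusted p = 0.746) and 0.20 in shocked vs. Ctrl (SE 0.0801, p = 0.021, adjusted p = 0.453, exact permutation p = 0.0222). Ash1l-201, the coding transcript with 89.0% of the gene, gave 0.24 in shocked vs. Ctrl (limma p = 0.00693, adjusted p = 0.435, exact permutation p = 0.0121). Nsd1 was at 9.53, 10.1, 8.68 and 9.89 FPKM in HC, 9.34, 10.3, 10.5 and 9.32 in Ctrl, 10.5, 11.3, 11.8 and 10.5 in NLH, and 13.1, 12.2, 10.5 and 10.1 in LH, a log2 difference of 0.19 in shocked vs. Ctrl (limma adjusted p = 0.566). Down-weighting variable libraries in limma brought Ash1l (0.25, adjusted p = 0.0262), Nsd1 (0.25, adjusted p = 0.0405) and Setd2 (0.53, adjusted p = 0.0224) past 0.05 in shocked vs. Ctrl, in a fit where 1053 genes of all passed. This fit gave LH3 a weight of 0.282 and LH4 one of 0.106. Without both, shocked vs. Ctrl gave 0.25 for Ash1l (limma adjusted p = 0.0576), 0.26 for Nsd1 (0.0581) and 0.57 for Setd2 (0.0505), and 0.29 for Ash1l-201 (0.0941), beside a median of 0.13 over all genes. With size factors over all mice the genes gave 0.15, 0.13 and 0.41.

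Setd2, the enzyme that trimethylates H3K36 behind elongating polymerase, was at 7.26, 8.06, 7.01 and 8.44 FPKM in HC, 5.01, 6.26, 6.99 and 7.00 in Ctrl, 10.3, 9.82, 11.1 and 6.26 in NLH, and 9.89, 9.07, 7.65 and 6.78 in LH. Ctrl mice were below all HC mice, and NLH4 and LH4 alone of the shocked mice were within Ctrl. The log2 difference was 0.54 in NLH vs. Ctrl (SE 0.173, limma p = 0.00623, adjusted p = 0.589, exact permutation p = 0.114) and 0.47 in shocked vs. Ctrl (SE 0.150, p = 0.00639, adjusted p = 0.323, exact permutation p = 0.0343). The gene sum and its coding transcript ordered the groups differently. Setd2-201, the coding transcript, was at 3.6, 3.46, 3.68 and 3.61 FPKM in HC, 3.69, 4.20, 4.58 and 4.62 in Ctrl, 4.64, 4.56, 5.02 and 5.00 in NLH, and 5.64, 5.71, 4.85 and 2.35 in LH. Here every Ctrl mouse was above every HC mouse, the reverse of the sum, except that after size factors Ctrl1 (3.34) was just below HC3 (3.35), and LH4 alone of the shocked mice was below the Ctrl mice. The difference was 0.24 in Ctrl vs. HC (p = 0.269, exact permutation p = 0.0286) and 0.17 in NLH vs. Ctrl (p = 0.432). In LH vs. Ctrl it was 0.04 with all mice and 0.41 without LH3 and LH4 (limma adjusted p = 0.0797).

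Setd2-202, a retained-intron transcript of 529 bases, held 22.3% of the gene over all mice. It was at 2.05, 2.57, 1.41 and 2.94 FPKM in HC, listed at 0 or close to it in Ctrl1 and Ctrl2 and at 0.762 and 0.600 in Ctrl3 and Ctrl4. In NLH it was at 3.76, 3.09, 4.74 and 0.00794, and in LH at 2.83, 1.46, close to 0 and 2.14. All Ctrl mice were below all HC mice, and NLH4, the NLH mouse with a low gene sum, had almost none of it. The isoform balance differed in Ctrl vs. HC by 1.23 for Setd2-201 (SE 0.493) and by -3.14 for Setd2-202 (SE 1.26), both with an adjusted p of 1.

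**Figure D4:**
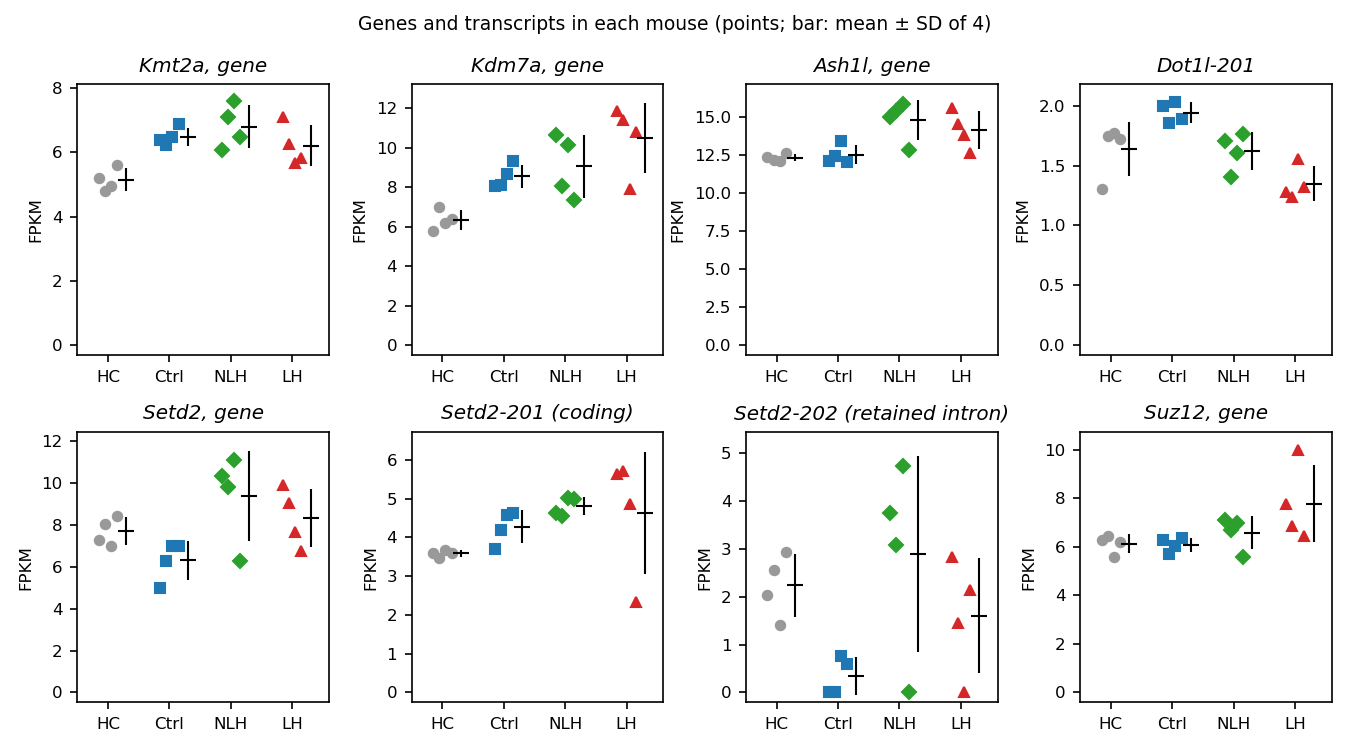
FPKM (vertical axis, from 0) of 5 genes and 3 transcripts in each mouse by group, with mean ± SD of 4 beside the points. All Ctrl points of Kmt2a and Kdm7a lie above HC, the Setd2 gene is lower in Ctrl than in HC while Setd2-201 is higher, and all shocked mice lie below Ctrl for Dot1l-201.

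Dot1l is the only known H3K79 methyltransferase. Its gene sum was 2.97, 2.98, 4.07 and 4.57 FPKM in HC, 4.68, 3.91, 4.62 and 4.28 in Ctrl, 3.66, 3.2, 3.23 and 4.10 in NLH, and 2.01, 3.85, 4.70 and 2.50 in LH (LH vs. Ctrl log2 -0.48, SE 0.220, limma p = 0.0431, adjusted p = 0.411, exact permutation p = 0.2). LH3 was above every Ctrl mouse and the groups overlapped. The difference was -0.63 without LH3 and LH4 (limma adjusted p = 0.109). The full-length coding transcript Dot1l-201 was steadier, at 1.30, 1.75, 1.78 and 1.72 FPKM in HC, 2.00, 1.85, 2.03 and 1.89 in Ctrl, 1.71, 1.40, 1.60 and 1.76 in NLH, and 1.28, 1.23, 1.56 and 1.32 in LH. All 8 shocked mice were below all Ctrl mice, also after size factors, and so were the HC mice on FPKM as deposited. The difference was -0.50 in LH vs. Ctrl (SE 0.134, limma p = 0.00206, adjusted p = 0.200, exact permutation p = 0.0286) and -0.38 in shocked vs. Ctrl (SE 0.116, p = 0.00554, adjusted p = 0.407, exact permutation p = 0.00404). These were -0.59 without LH3 and LH4 (adjusted p = 0.0783) and -0.42 (adjusted p = 0.110).

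Of the H3K9 methyltransferases, Ehmt1 (GLP), the partner of G9a, was at 6.75, 6.31, 6.77 and 8.39 FPKM in HC and 8.94, 7.56, 8.93 and 9.62 in Ctrl. HC4 lay among the Ctrl mice, and the log2 difference was 0.31 (SE 0.156, limma adjusted p = 1). NLH mice were at 8.89, 7.52, 8.11 and 8.23 and LH mice at 8.53, 7.82, 8.34 and 13.8. Its transcripts ordered the groups differently. Ehmt1-206, a target of nonsense-mediated decay, was at 1.04, 1.11, 1.06 and 1.55 FPKM in HC, 2.06, 1.51, 1.14 and 1.83 in Ctrl, 0.0639, 0.421, 0.114 and 0.730 in NLH, and 0.440, 1.01, close to 0 and 2.44 in LH. All NLH mice were below all HC and Ctrl mice (log2 -2.28 vs. Ctrl, SE 0.752, limma p = 0.00867, adjusted p = 0.706, exact permutation p = 0.0286), and LH mice were spread over the whole range. The coding transcripts of Ehmt1, named after their values were seen and given without a test, summed to 2.92, 2.87, 2.8 and 2.94 FPKM in HC, 3.67, 3.39, 3.40 and 4.23 in Ctrl, 5.12, 4.43, 5.73 and 4.22 in NLH, and 5.28, 3.77, 6.14 and 1.76 in LH. HC mice were below all others but LH4, and only the lowest NLH mouse lay within Ctrl. Setdb1, Ehmt2 and Suv39h2 had no p under 0.05. After median-ratio scaling between mice, Ehmt2 had a log2 difference of -0.28 in LH vs. Ctrl (limma adjusted p = 0.136), against -0.24 on FPKM as deposited. Without LH3 and LH4, and without scaling, the Ehmt2 difference was 0.07 (limma adjusted p = 0.759), beside a median of 0.19 over all genes. After size factors LH1 and LH2 were at 14.0 and 14.9, below all Ctrl mice (15.4 to 16.8).

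All 4 PRC2 core genes were higher on average in LH than in Ctrl, with log2 differences of 0.17 to 0.40. Their sum was 23.2 to 25.0 FPKM in Ctrl, 22.2 to 27.8 in NLH and 27.2 to 31.0 in LH, so every LH mouse was above every Ctrl and every HC mouse. After size factors the LH sums were 23.5, 23.8, 32.6 and 36.2 and those of Ctrl 22.6 to 25.3, so that LH1 and LH2 lay within Ctrl. Over coding transcripts alone the sum was 15.3, 16.3, 14.3 and 15.7 FPKM in Ctrl and 18.9, 18.2, 15.5 and 15.3 in LH, and LH3 and LH4 lay within Ctrl. Coding Ezh1 was at 7.87 ± 0.439 FPKM in Ctrl and 7.86 ± 0.692 in LH, and coding Ezh2 at 0.957 ± 0.153 and 0.765 ± 0.464 (SD, n = 4), with LH4 at 0.139. Suz12 was at 6.29, 6.43, 5.56 and 6.19 FPKM in HC, 6.28, 5.70, 6.04 and 6.34 in Ctrl, 7.09, 6.69, 6.96 and 5.57 in NLH, and 7.75, 6.87, 10.0 and 6.44 in LH. The LH mice were above all HC and Ctrl mice, the last by a narrow margin, while NLH mice lay on both sides. After size factors LH2 (5.72) lay within Ctrl (5.55 to 6.64). LH vs. Ctrl gave 0.33 (SE 0.130, limma p = 0.0227, adjusted p = 0.344, exact permutation p = 0.0286). Its coding transcripts alone were at 4.95 ± 0.268 FPKM in Ctrl and 6.54 ± 0.553 in LH (SD, n = 4). Eed, which binds H3K27 methylation and activates the complex, was at 3.69, 3.28, 3.22 and 4.07 FPKM in HC, 3.63, 3.54, 4.12 and 3.26 in Ctrl, 3.81, 4.03, 4.56 and 3.59 in NLH, and 4.93, 4.46, 3.72 and 6.64 in LH. LH3 lay within Ctrl, and LH vs. Ctrl gave 0.40 (SE 0.157, limma p = 0.0204, adjusted p = 0.330, exact permutation p = 0.0571). Coding transcripts of Eed were at 1.83, 1.93, 1.35 and 1.40 FPKM in Ctrl and 2.44, 1.84, 1.59 and 1.32 in LH, and the groups overlapped. Without LH3 and LH4, Suz12 gave 0.26 and Eed 0.36, above the median of all genes of 0.19, while Ezh1 gave 0.16 and Ezh2 0.07, below it (with all mice 0.17 and 0.26). LH vs. NLH gave 0.27 for Eed (limma adjusted p = 0.724; 0.23 without LH3 and LH4), and no PRC2 gene had an unadjusted p under 0.05 there. With size factors LH vs. Ctrl gave 0.29 for Suz12 and 0.37 for Eed (limma adjusted p = 0.330 and 0.341), and neither then had an unadjusted p under 0.05.

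Kdm1a takes methyl groups from H3K4, and its neuronal splice form carries an extra microexon. The gene was at 9.27, 8.26, 7.60 and 8.22 FPKM in HC, 8.82, 7.50, 8.79 and 8.20 in Ctrl, 10.3, 9.98, 9.29 and 8.34 in NLH, and 11.1, 11.5, 11.3 and 5.52 in LH. LH1, LH2 and LH3 were the highest of all 16 mice and LH4 was the lowest on FPKM as deposited, while after size factors NLH1 (10.4) was above LH1 (9.59) and LH2 (9.60). LH vs. Ctrl gave a log2 difference of 0.18 (SE 0.183, limma adjusted p = 0.743). Without LH4 it was 0.44 (adjusted p = 0.0491), and without LH3 and LH4 also 0.44 (adjusted p = 0.0368), beside a median of 0.19 over all genes. Nsd1 in the latter fit gave 0.36 (adjusted p = 0.0428).

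Kdm1a-202 and Kdm1a-203 are full-length coding transcripts that differ by exon 3 of Kdm1a-202, 60 bases in frame at chr4:136582040-136582099 (minus strand, GRCm38), which Kdm1a-203 lacks. Kdm1a-208 is a partial coding transcript that holds the neuronal microexon of 12 bases (chr4:136563438-136563449, minus strand). Both exons are shown in capitals between 15 flanking bases of the transcript, from GENCODE vM21.
Kdm1a-202, exon 3: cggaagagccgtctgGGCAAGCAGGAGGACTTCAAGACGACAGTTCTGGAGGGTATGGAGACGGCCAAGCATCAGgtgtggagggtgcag
Kdm1a-208, microexon: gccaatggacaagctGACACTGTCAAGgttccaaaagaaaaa
Kdm1a-203, without exon 3, was at 1.22, 0.922, 1.96 and 1.36 FPKM in HC, 0.855, 1.26, 2.01 and 1.01 in Ctrl, 1.03, 1.60, 1.46 and 1.16 in NLH, and 2.22, 2.87, 3.13 and 2.45 in LH. All 4 LH mice were above the other 12 mice, LH3 and LH4 included, and after size factors LH1 was level with HC3 (both 1.78). The log2 difference was 1.06 against Ctrl (SE 0.255, limma p = 0.000904, adjusted p = 0.158, exact permutation p = 0.0286) and 0.98 against NLH (SE 0.255, p = 0.00171, adjusted p = 0.280, exact permutation p = 0.0286). Without LH3 and LH4 these were 0.99 (adjusted p = 0.174) and 0.91 (adjusted p = 0.359). In both comparisons no other member transcript of 1 FPKM or more on average had a smaller p.

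Kdm1a-202, with exon 3, was at 1.88, 1.63, 0.954 and 1.12 FPKM in HC, 1.55, 1.54, 1.68 and 1.89 in Ctrl, 2.50, 2.07, 2.63 and 1.76 in NLH, and 1.97, 1.71, 0.611 and 0.00320 in LH. LH1 and LH2 stayed within the range of the other groups and LH3 and LH4 were below it. The share of Kdm1a-202 in both transcripts, a pair chosen after the values were seen, was 60.7%, 63.9%, 32.8% and 45.2% in HC, 64.4%, 55.0%, 45.5% and 65.2% in Ctrl, 70.8%, 56.5%, 64.3% and 60.2% in NLH, and 47.0%, 37.3%, 16.3% and 0.131% in LH. LH mice were below all NLH mice and overlapped Ctrl through LH1 and Ctrl3. The isoform balance of Kdm1a-202 differed by -1.92 in LH vs. NLH (SE 0.596, limma adjusted p = 0.358), and by -0.65 without LH3 and LH4 (adjusted p = 0.655). Kdm1a-204, a retained-intron transcript, was at 1.05 to 1.89 FPKM in Ctrl and 0.570 to 1.13 in LH (isoform balance -1.04, SE 0.340, limma adjusted p = 0.320), and its balance was -1.17 without LH3 and LH4. Kdm1a-205, of the same class, was at 0.984 to 1.63 in Ctrl and 0.366 to 1.17 in NLH (isoform balance -1.07, SE 0.437, limma adjusted p = 0.977). Kdm1a-208 with the microexon was at 0.402 FPKM in HC3, 0.589 in LH1 and 1.55 in LH3, and under 0.01 FPKM in the other mice. Summed over its coding transcripts, again chosen after the values were seen and given without a test, Kdm1a was at 4.32, 3.28, 3.46 and 3.26 FPKM in HC, 3.25, 3.16, 3.80 and 3.58 in Ctrl, 6.36, 4.42, 5.18 and 3.90 in NLH, and 7.66, 7.67, 5.29 and 4.27 in LH. All 8 shocked mice were above all Ctrl mice in this sum.

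**Figure D5:**
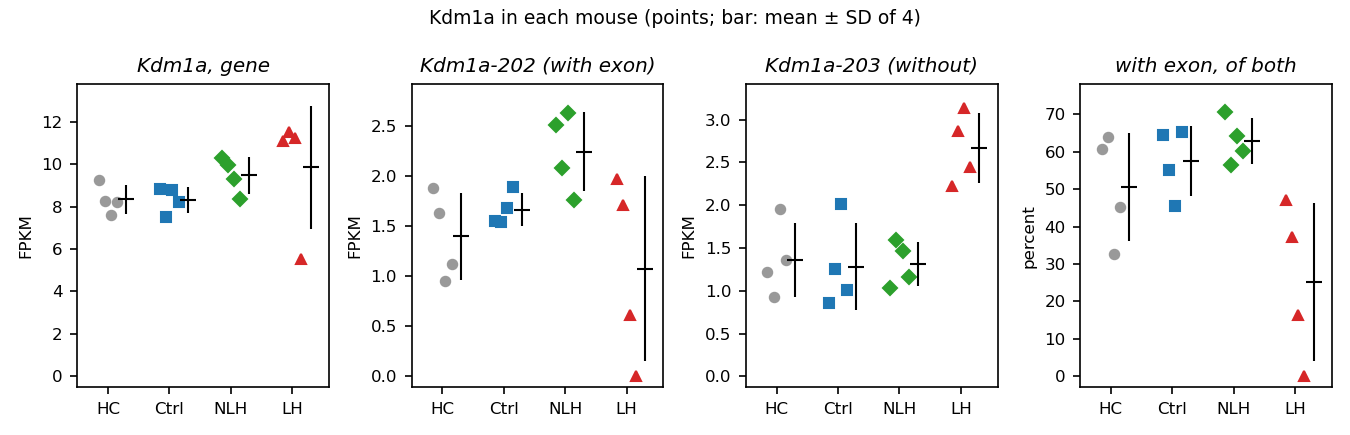
Kdm1a in each mouse by group: gene FPKM, FPKM of Kdm1a-202 (with exon 3) and Kdm1a-203 (without), and the percent of Kdm1a-202 in both, with mean ± SD of 4 beside the points. Kdm1a-203 is between 2.22 and 3.13 FPKM in LH and at most 2.01 in the other 12 mice, and LH4 is low in every panel but that one.

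Kdm1b, the second flavin-dependent demethylase, was at 1.14, 1.31, 1.39 and 1.18 FPKM in HC, 0.990, 1.22, 1.35 and 1.18 in Ctrl, 1.49, 1.53, 1.33 and 1.28 in NLH, and 1.27, 1.27, 1.12 and 0.948 in LH. LH mice were below all NLH mice by a narrow margin that was lost after size factors, and both overlapped Ctrl (LH vs. NLH log2 -0.27, SE 0.155, limma p = 0.0992, adjusted p = 0.717, exact permutation p = 0.0286). The difference was -0.13 without LH3 and LH4 (limma adjusted p = 0.705). The median of all genes was then 0.13, against -0.06 with all mice, and Kdm1b was at -0.26 relative to 0.13.

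Kdm7a, a JmjC enzyme that removes H3K9 and H3K27 methylation, was lowest in HC mice. It was at 5.77, 7.01, 6.18 and 6.40 FPKM in HC, 8.05, 8.12, 8.69 and 9.31 in Ctrl, 10.7, 8.06, 10.1 and 7.33 in NLH, and 11.8, 11.4, 7.92 and 10.8 in LH. All 12 mice with escape trials were above all HC mice. Ctrl vs. HC gave a log2 difference of 0.43 (SE 0.142, limma p = 0.00848, adjusted p = 1, exact permutation p = 0.0286), and LH vs. Ctrl one of 0.28 (adjusted p = 0.475). With LH3 and LH4 left out, LH vs. Ctrl gave 0.44 (limma adjusted p = 0.0749), and LH vs. NLH went from 0.21 to 0.37 (adjusted p = 0.245). The medians of all genes in that fit were 0.19 and 0.13, and Kdm7a lay 0.245 and 0.243 above them. With all mice the median of LH vs. NLH was -0.06. Kdm7a-201, the full-length coding transcript with 92.6% of the gene, gave 0.41 in Ctrl vs. HC (limma adjusted p = 1). Among the other demethylases, log2 differences against Ctrl in NLH and LH lay between -0.26 for Kdm4a and 0.20 for Kdm6b, both in LH, and none had a p under 0.05 in any comparison. Without LH3 and LH4, LH vs. Ctrl gave 0.00 for Kdm4a and 0.02 for Kdm6b, beside a median of 0.19 over all genes. Relative to that median Kdm4a was at -0.19 and Kdm6b at -0.17. Kdm5b (0.37), Kdm4b (0.34) and Kdm3b (0.27) then had an unadjusted p under 0.05 (limma adjusted p = 0.104, 0.198 and 0.136). In this fit 22.4% of all genes were higher at that p, and these genes lay 0.17, 0.15 and 0.07 above the median of all genes.

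Partners of these enzymes and further histone methylation enzymes were taken from a list of 85, of which 71 had values. None passed an adjusted p of 0.05 in limma. At an unadjusted p under 0.05, 1 was higher in Ctrl vs. HC (1.61% of all genes were), 4 in NLH vs. Ctrl (4.43%), and 5 were higher and 3 lower in LH vs. Ctrl (7.03% and 4.49%). For LH vs. NLH the numbers were 2 higher and 5 lower (2.75% and 4.79%), and in shocked vs. Ctrl 6 were higher and 1 lower (6.57% and 2.25%). By group, in LH vs. Ctrl these were 2 of 14 COMPASS partners (both higher), 1 of 5 PRC2 partners (lower), 1 of 22 other SET, SMYD and PRDM genes (lower), 1 of 9 arginine methyltransferases (lower), 1 of 7 other JmjC genes (higher), 1 of 9 partners and readers of H3K9 methylation (higher) and 1 of 5 CoREST partners (higher). Smyd5, which methylates H4K20 and H3K36, was at 6.15, 5.49, 4.42 and 4.58 FPKM in HC, 6.12, 5.37, 6.15 and 4.78 in Ctrl, 5.15, 6.16, 5.93 and 5.40 in NLH, and 4.05, 4.10, 4.45 and 3.24 in LH. Every LH mouse was below every Ctrl and NLH mouse, while HC3 lay below LH3. The log2 difference was -0.49 against Ctrl (SE 0.137, limma adjusted p = 0.178) and -0.51 against NLH (adjusted p = 0.374), and without LH3 and LH4 -0.44 (adjusted p = 0.083) and -0.46 (adjusted p = 0.196). Bod1l, a partner of SETD1A, was at 3.44, 3.54, 3.79 and 3.78 FPKM in Ctrl, 4.66, 4.85, 4.91 and 4.21 in NLH, and 5.16, 3.99, 4.34 and 4.74 in LH. All 8 shocked mice were above Ctrl, LH2 not so after size factors (log2 0.33 in shocked vs. Ctrl, SE 0.0976, limma adjusted p = 0.277, and also 0.33 without LH3 and LH4). Zfp644, a partner of G9a and GLP, had the smallest p in Ctrl vs. HC (log2 0.31, limma adjusted p = 1), at 11.6 to 16.7 FPKM in HC and 16.4 to 22.0 in Ctrl, ranges that overlapped.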

How the data were processed

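Hippocampal RNA of 16 mice was made into total RNA libraries and sequenced as paired reads by the authors. The paper's methods name HISAT2 on mm10 as the aligner, while the submitters' processing notes name STAR 2.42a with StringTie 1.2.3 and Cufflinks, so the aligner is unsettled here. Strandedness is not given in the sources used here. The deposited values are FPKM per transcript, filtered by the authors and not scaled between mice, with no read counts. Depth was estimated from FPKM steps of 1962 loci longer than 2000 bases with an assumed fragment of 200 bases, where 64.5% to 73.4% of values lay within 0.1 of a whole fragment (chance gives 20%), so reads were not recovered and no counting interval is given.

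FPKM was summed over the named transcripts of a gene. Limma 3.58.1 (R 4.3.3, with the data.table package, version 1.17.8; trend and robust) was fitted to log2(FPKM + 0.1) of the 16 mice with 4 group means for 18287 genes, 80137 transcripts and the isoform balance of 54197 transcripts, with Benjamini-Hochberg adjustment over each. It was set as the main test in place of the study's equal-variance test on FPKM at an unadjusted 0.05, which was also run. Exact permutation tests were two-sided. Gene and transcript positions and classes came from GENCODE vM21 (all 216 member transcripts matched) and promoters from RefSeq. Other steps used Python 3.11.15, numpy 2.4.6, pandas 2.3.3, scipy 1.17.1 and matplotlib 3.10.9. The tests were tested on simulated data.

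The members and gene lists were chosen with earlier results of these data known. Members were named by rule: the 3 highest and 3 lowest in level, the 3 members with the smallest p per comparison, per comparison the 2 transcripts of smallest p among those averaging 1 FPKM or more, and the 2 with the smallest isoform balance p. Other genes are named as chosen after seeing values or as context of their role. Alternatives were other values added before the logarithm (0.01 and 1), a mean FPKM of at least 1, size factors, limma without trend, array weights, only the groups compared, the replicate number as a block, the study's test, each mouse left out in turn, and both LH3 and LH4 left out. The sums with unnamed transcripts were chosen after seeing the data. The sequence of 1 transcript difference is not reported here.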

Additional observations from a re-analysis of the deposited data

Results flagged for a closer look

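Within the 4 mice of a group, 1 mouse stood far from the other 3 by Dixon's test in 9 of 132 groups of member genes, where chance flags about 1 in 20. LH4 accounts for 5 of them: it was the lowest LH mouse for Kdm1a (5.52 FPKM, next 11.1), Kdm5a (2.73, next 7.41) and Setdb1 (0.910, next 2.88), and the highest for Ehmt1 (13.8, next 8.53) and Setd1b (5.37, next 3.19). The others were Kmt2d in HC4 (6.34, next 3.96), Ehmt2 in Ctrl1 (14.5, next 16.7), Ezh1 in Ctrl4 (11.9, next 10.9) and Kdm2a in Ctrl4 (14.3, next 11.4). LH4 is also the library with the most transcripts at 0, and the part of this in its values was not tested.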

How the results depend on the processing

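No member gene, transcript or isoform balance passed an adjusted p of 0.05 in limma as reported, and this held in all alternatives except the following. With array weights, 1 member gene passed in LH vs. Ctrl (Nsd1) and 3 in shocked vs. Ctrl (Ash1l, Nsd1 and Setd2), and without LH3 and LH4 together 2 passed in LH vs. Ctrl (Kdm1a and Nsd1). Leaving out each mouse in turn gave 0 to 1 member genes in LH vs. Ctrl (1 without LH4), 0 to 3 member transcripts in LH vs. Ctrl (3 without LH2, of Kmt2d, Ezh2 and Ehmt1, and 1 without NLH3, of Kmt2d) and 0 to 1 in shocked vs. Ctrl, and 0 to 2 and 0 to 1 isoform balances in the same comparisons, each highest without LH2. Over all genes the number that passed in LH vs. Ctrl was 0 as reported, 49 with size factors, 968 with array weights and 989 without LH3 and LH4, and in shocked vs. Ctrl 2, 22, 1053 and 659. Without LH3 and LH4 the median of all genes in LH vs. Ctrl moved from 0.00 to 0.19, with array weights to 0.12. In LH vs. Ctrl the split of member genes with an unadjusted p under 0.05 was 3 higher and 2 lower as reported (7.03% and 4.49% of all genes), 2 higher and 5 lower with size factors (7.15% and 8.68%), 9 and 2 with array weights (17.6% and 2.95%), 10 and 2 without LH3 and LH4 (22.4% and 1.9%), 1 and 2 by the study's test (5.4% and 2.62%), and 1 and 1 with only the groups compared (4.78% and 2.68%). Setd5 turned from -0.33 to 0.03 in LH vs. Ctrl (0.0255) and from -0.25 to 0.01 in shocked vs. Ctrl (0.00629) when unnamed transcripts were added. The cause of these changes was not tested.

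With the replicate number as a block, 0 member genes passed in each comparison, as without it. The numbers were not taken to pair the mice. Deviations from the group means had a median r of -0.023 in 24 pairs of equal number (range -0.0991 to 0.138) and of 0.0035 in 72 pairs of unequal number. FPKM gives no counting error, so precision rests on the spread of 4 mice.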
